A study of Mus musculus with 6 samples.

Results

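The genes described here encode the semaphorin, ephrin, Slit and netrin guidance ligands and their plexin, Eph, Robo, Unc5 and Dcc receptors, which steer migrating cells and growing axons. A list of 57 gene symbols defined them, with neuropilins left out, and 56 of the 57 were measured by a probe set that carries that symbol alone (Ephb2 was not analysed here). All 56 passed the filter on low values, among 18710 genes that did. Total RNA of spleens from mouse embryos at E13.5 was hybridised to 6 Affymetrix arrays, 3 from Tlx1 homozygous and 3 from Tlx1 heterozygous embryos. Tlx1 encodes a homeobox transcription factor needed for spleen development, and the series title poses the question of its control over retinoic acid signalling. Both groups carry at least 1 copy of the altered Tlx1 allele, if homozygous and heterozygous are read as referring to that allele, which the labels do not name. No wild-type spleen was among the samples analysed here.

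Guidance ligands act at short or long range on receptors of neighbouring cells. Semaphorins bind plexins, some of them through neuropilin co-receptors, and plexin signalling makes the cytoskeleton retract. Ephrins and Eph receptors are both held at the cell surface and signal on contact in both directions, secreted Slits repel cells through Robo receptors, and netrins attract through Dcc or repel through Unc5 receptors. Outside the nervous system the same families pattern blood vessels, mesenchyme and epithelium.

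Array medians lay between 106 and 110.5 intensity units, and pairs of arrays correlated across genes at 0.995 to 0.997 in the same group and at 0.989 to 0.993 in different groups (log2 values). Tlx1 itself, the check of the labels, was lower in homozygous spleens, with an intensity of 171, 209 and 199.9 in homozygous spleens, against 825, 706 and 719 in heterozygous spleens, a log2 fold change of −1.95 ± 0.09 (SE), adjusted p = 1.30e-05. The position of its probe set relative to the alteration was not analysed here. The labels do not say whether replicates were separate embryos or pools, so p-values cover the spread of these arrays alone, and that spread may be technical. Nkx2-5 and Nkx3-2, among 8 measured spleen mesenchyme markers, had means of 243 and 236 in homozygous spleens, against 614 and 555 in heterozygous spleens. Both were called lower, at −1.36 ± 0.15 (SE), adjusted p = 0.00133, and −1.23 ± 0.06 (SE), adjusted p = 2.10e-05. Of the 8, 5 were called lower and 1 higher, beside 6.56% and 10.4% of all genes tested. In whole tissue, fewer cells of a type and less RNA per cell cannot be told apart.

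Robo2 fell 3.77-fold in homozygous spleens, and the EphA receptor genes Epha4, Epha7 and Epha3 and the netrin receptor gene Unc5c rose. In all, 12 guidance genes passed as higher and 6 as lower. Those 18 of 56 genes are 32.1%, beside 17.0% of all genes tested (10.4% higher and 6.56% lower). The list was chosen with earlier results of these data known, so this share and those of the families below are descriptive only. The threshold for a call was an adjusted p of 0.05 in limma's moderated test, with Benjamini-Hochberg adjustment over all 18710 genes, and a log2 fold change is homozygous minus heterozygous on the log2(intensity + 1) scale. The median log2 fold change of the 56 genes was 0.05, beside 0.02 over all genes. Of their estimates 36 lay above 0 and 20 below, beside 10029 and 8681 over all genes. The estimates of 8 genes (14.3%) were larger than 0.5 in size on the log2 scale, beside 3.30% of all genes. Receptors held most of these large changes, 7 of 25 (28%), against 1 of 31 ligands (3.23%). The difference between receptors and ligands was not tested.

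**Figure D1:**
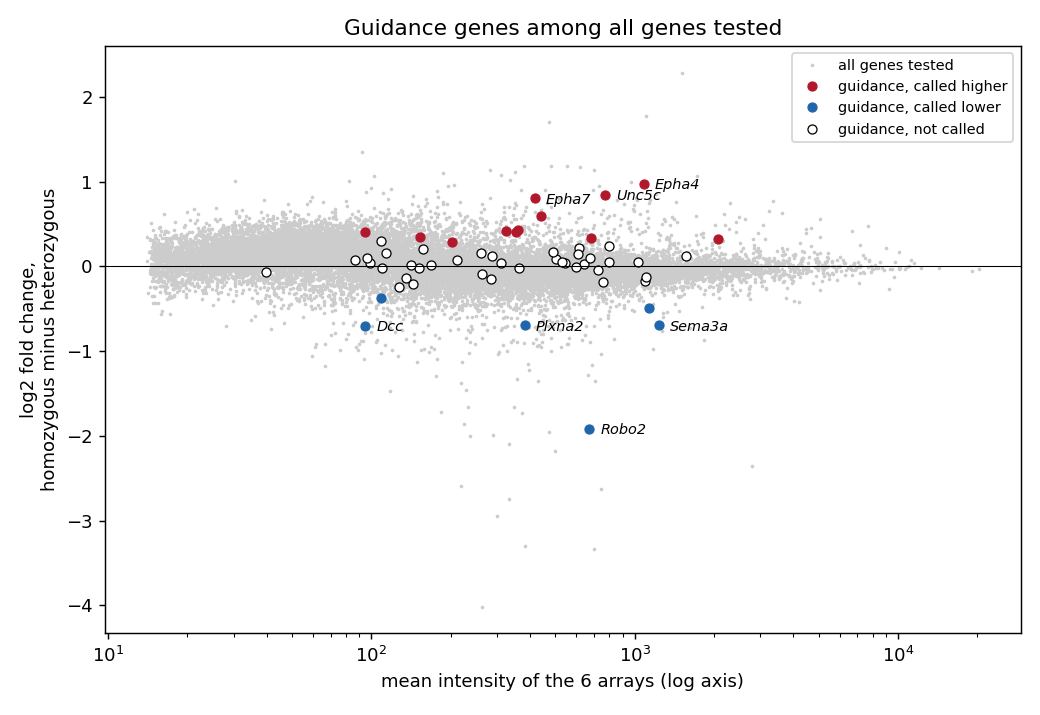
Log2 fold change (homozygous minus heterozygous) against the mean intensity of the 6 arrays on a log axis, for 18710 genes in grey and 56 guidance genes as larger points coloured by call. Robo2, at −1.91, stands below the other guidance genes, and Epha4, Unc5c and Epha7 lie between 0.80 and 0.98.

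The 18 called genes all had groups that did not overlap, and so had 14 of the 38 genes that were not called. Together these are 57.1% of the 56 genes, beside 38.3% of all genes tested. Of the 18 calls, 10 held in each of 19 other settings, namely those of Sema3a, Sema5b, Plxna2, Plxnd1, Epha3, Epha4, Epha7, Robo2, Unc5c and Dcc.

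**Figure D2:**
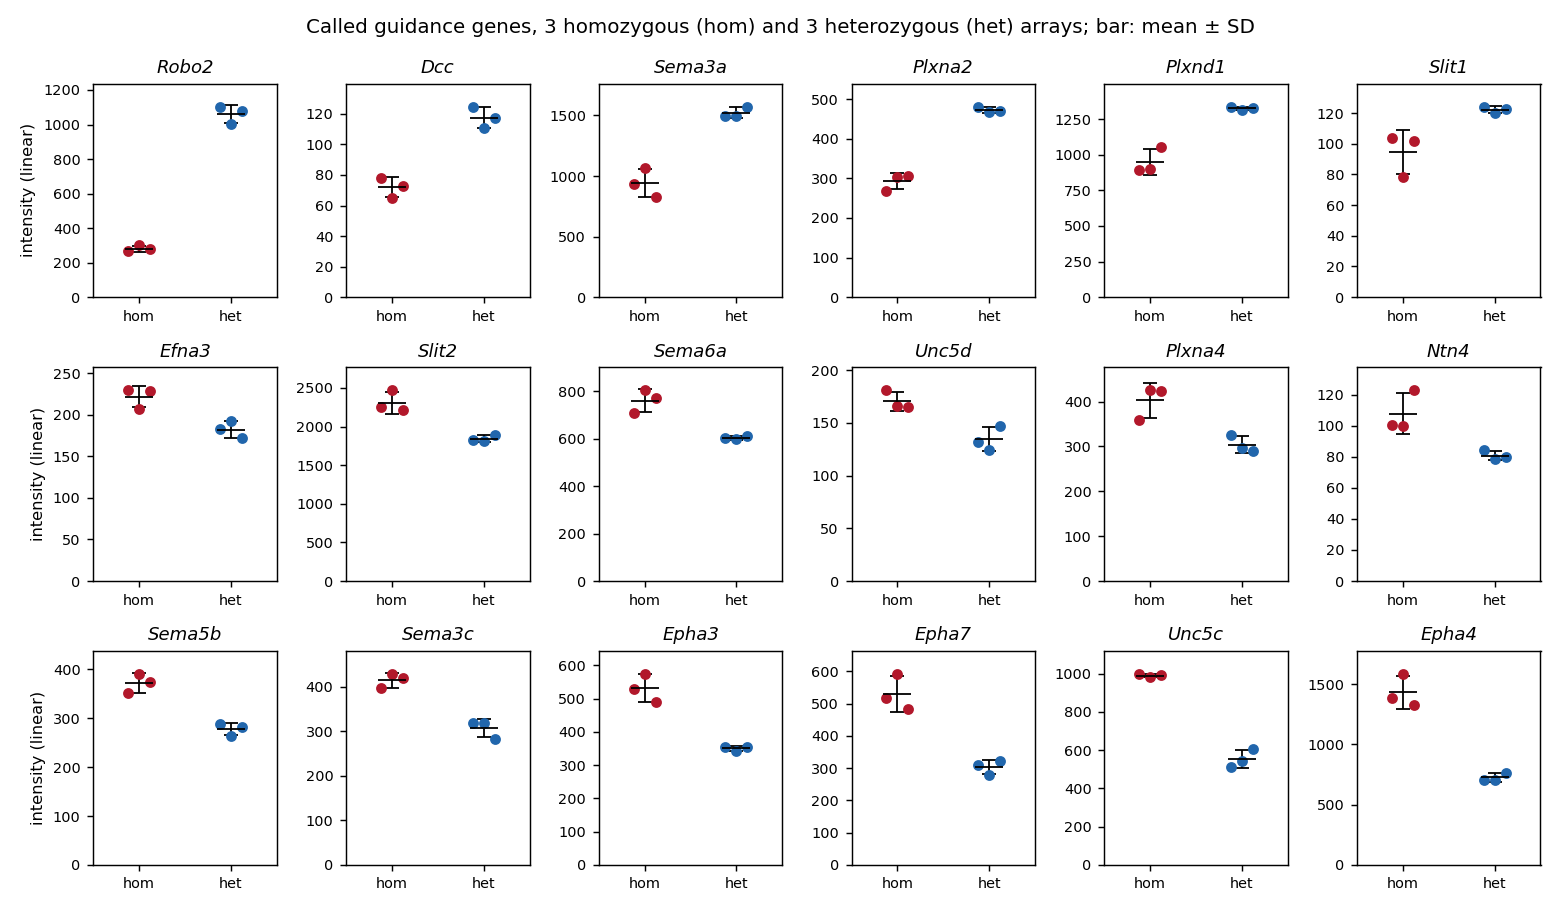
Intensity on a linear axis from 0 for the 18 called guidance genes, ordered by log2 fold change, with 1 point per array, homozygous (hom) left of heterozygous (het) and the mean ± SD of 3 arrays as bars. In every panel the 3 homozygous points lie wholly above or wholly below the 3 heterozygous points.

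The upstream sequences of the 4 genes with the largest changes are shown to set the annotated start regions of the gene that fell beside those of genes that rose. Each is the 250 bases before an annotated start, 5′ to 3′ on the gene's strand, from RefSeq on GRCm38.p6. Capitals mark TAATTG or its reverse CAATTA, a core bound by many homeodomain proteins. TAATTA, another homeodomain core, and AGGTCA (reverse TGACCT), a core bound by nuclear receptors, were searched on both strands as well, and neither is present in these windows.
Robo2, chr16:75447294-75447543, minus strand: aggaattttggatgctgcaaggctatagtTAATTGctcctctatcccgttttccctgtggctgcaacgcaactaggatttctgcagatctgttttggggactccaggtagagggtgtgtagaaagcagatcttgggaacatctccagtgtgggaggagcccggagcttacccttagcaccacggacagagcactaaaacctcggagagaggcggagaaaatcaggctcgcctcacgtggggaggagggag
Epha4, chr1:77515089-77515338, minus strand: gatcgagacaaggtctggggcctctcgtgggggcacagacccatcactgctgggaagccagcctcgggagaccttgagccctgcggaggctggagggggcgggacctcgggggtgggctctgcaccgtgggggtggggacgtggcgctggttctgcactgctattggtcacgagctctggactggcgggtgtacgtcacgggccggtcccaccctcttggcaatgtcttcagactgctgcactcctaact
Unc5c, chr3:141465314-141465563, plus strand: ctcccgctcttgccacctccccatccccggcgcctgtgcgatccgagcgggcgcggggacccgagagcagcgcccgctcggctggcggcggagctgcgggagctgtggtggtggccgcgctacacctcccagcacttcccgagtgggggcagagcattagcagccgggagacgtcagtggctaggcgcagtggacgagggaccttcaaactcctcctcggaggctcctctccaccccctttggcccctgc
Epha7, chr4:28812895-28813144, plus strand: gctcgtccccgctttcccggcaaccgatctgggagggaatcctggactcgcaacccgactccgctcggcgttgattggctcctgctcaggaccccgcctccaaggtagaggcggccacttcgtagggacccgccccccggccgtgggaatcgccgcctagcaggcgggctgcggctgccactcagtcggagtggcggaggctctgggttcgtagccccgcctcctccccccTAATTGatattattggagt
Robo2 has 3 annotated starts in this table and TAATTG stands before 1 of them, the most upstream. Epha7 has 2 starts with overlapping windows, and the same TAATTG lies whole in the second and is cut by the end of the first. For both genes the window shown is the one that holds TAATTG. Of the 18 called genes 13 had such a window, 17 windows in all, and TAATTG was in those of Robo2 and Epha7, AGGTCA in those of Plxnd1 and Ntn4, and TAATTA in none. Over 32536 windows of all genes, 7.18% hold TAATTG, 4.84% TAATTA and 14% AGGTCA. The Robo2 window shown has 8 CpG dinucleotides, and those of Epha4, Unc5c and Epha7 have 14, 23 and 23. The median over all windows is 6. The Robo2 windows not shown have 4 and 14, so 1 of them equals Epha4, and the Epha7 window not shown has 25. Of the other genes that fell, Sema3a, Plxna2 and Plxnd1 have 2, 18 and 16. CpG counts of genes that fell and genes that rose therefore overlap. These motif matches and counts describe letters only, and which start the spleen uses was not analysed here.

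Among the 5 listed Slit and Robo genes, Robo2 and Slit1 fell and Slit2 rose (60% called, beside 17.0% of all genes). Robo3, not on the list, was called higher and is given further on. Robo2, a transmembrane receptor that makes cells turn away from Slit, had an intensity of 267, 301 and 276 in homozygous spleens, against 1104, 1005 and 1079 in heterozygous spleens. The homozygous arrays were low without exception, and the gap between groups was far wider than the spread within either. This was a log2 fold change of −1.91 ± 0.07 (SE), adjusted p = 2.21e-06, or 3.77-fold lower, the 14th most negative value of the 18710 genes. Robo1, a second Slit receptor, had 1029.8, 1105 and 1031 in homozygous spleens, against 1115, 1154 and 1186 in heterozygous spleens. Its groups did not overlap, but its log2 fold change of −0.13 ± 0.06 did not pass (adjusted p = 0.189), with a 95% interval of −0.27 to 0.02.

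The ratio of Robo2 to Robo1 within each array changed by −1.79 ± 0.06 (SE) on the log2 scale. An exact permutation test over the 20 splits of the 6 arrays gave p = 0.1, two-sided, the smallest that 3 against 3 allows. The same p was found for each of 7 such ratios, 0.1 also after Benjamini-Hochberg adjustment over the 7, and the pairs were chosen after their values were seen. Robo1 and Robo2 are neighbours in the RefSeq gene order (GRCm38.p6), with no protein-coding gene between them.

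Of the ligands, Slit2 had an intensity of 2250.2, 2469 and 2209 in homozygous spleens, against 1820.4, 1810.3 and 1897 in heterozygous spleens (log2 fold change 0.32 ± 0.07 (SE), adjusted p = 0.0153). It lost its call without heterozygous replicate 1 or 2 and with the level of Y-linked genes as a covariate (adjusted p = 0.0586), at values of 0.27 to 0.36 over the 6 fits that leave out 1 array. Slit1 had an intensity of 104, 78.4 and 102 in homozygous spleens, against 124, 119.8 and 123 in heterozygous spleens (−0.38 ± 0.10 (SE), adjusted p = 0.0418). Homozygous replicate 2 was the lowest of the 6, and the fit without it (−0.25) was the 1 of the 6 fits without 1 array in which the call held (−0.45 to −0.25). It was also lost with the Y-linked covariate (adjusted p = 0.168). Slit1 was dim in homozygous spleens, with a mean of 94.7, below the array medians of 106 to 110.5. The ratio of Slit2 to Slit1 changed by 0.70 ± 0.18. Slit3, the third family ligand, was at 0.05 ± 0.07 (adjusted p = 0.645) and its groups overlapped.

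In the netrin system the repulsive receptor genes Unc5c and Unc5d and the ligand gene Ntn4 rose, and the attractive receptor gene Dcc fell. These are 57.1% of the 7 listed and measured genes, beside 17.0% of all genes. Unc5c intensity was 997, 981 and 991 in homozygous spleens, against 511, 545 and 605 in heterozygous spleens. The homozygous arrays were almost level with each other and all lay above the brightest heterozygous array. The log2 fold change was 0.84 ± 0.07 (SE), adjusted p = 0.000381, or 1.79-fold higher. Dcc, which mediates attraction toward netrin-1, had 78.3, 65.1 and 72.9 in homozygous spleens, against 125, 111 and 117 in heterozygous spleens. All homozygous values lay below all heterozygous ones, with a log2 fold change of −0.70 ± 0.08 (SE), adjusted p = 0.0017. Dcc was dim in homozygous spleens, with a mean of 72.1, below the array medians of 106 to 110.5. The ratio of Unc5c to Dcc changed by 1.54 ± 0.12 (exact permutation p = 0.1, as above).

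Unc5d, a further receptor of the Unc5 family, had 181, 166 and 165 in homozygous spleens, against 132, 125 and 147 in heterozygous spleens (0.34 ± 0.08 (SE), adjusted p = 0.0221). A second, dimmer probe set of Unc5d gave 0.37 ± 0.11 and did not pass (adjusted p = 0.0502 over all 20424 kept probe sets). The call was also lost without homozygous replicate 1 and without heterozygous replicate 1 or 2 (0.29 to 0.41). Unc5a, at −0.20 ± 0.09 (adjusted p = 0.152), and Unc5b, a receptor of endothelial tip cells at 0.16 ± 0.08 (adjusted p = 0.222), did not pass.

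Ntn4, which encodes a netrin of basement membranes, had 101, 99.9 and 123 in homozygous spleens, against 84.1, 78.3 and 79.8 in heterozygous spleens (0.41 ± 0.09 (SE), adjusted p = 0.0188). Homozygous replicate 3 was the highest. Ntn4 was dim in heterozygous spleens, with a mean of 80.7, below the array medians of 106 to 110.5. The call did not hold when heterozygous replicate 2 was left out or with the Y-linked covariate (adjusted p = 0.0765). Ntn1, the classical ligand of Dcc and Unc5 receptors, lay near the threshold at 0.30 ± 0.10 (adjusted p = 0.0717), with 112, 117 and 131 in homozygous spleens, against 101, 85.3 and 108 in heterozygous spleens. Its groups did not overlap, and it passed with the Y-linked covariate (adjusted p = 0.0461) and with the replicate number as a block (adjusted p = 0.0429).

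Among the 10 listed and measured Eph receptors 3 rose and none fell (30% called, beside 17.0% of all genes). These 3 are class A receptors (Epha6 and Epha10, not on the list, were also called higher). Epha4, which binds ephrins of both classes, reached 1389, 1584 and 1326 in homozygous spleens, against 707, 706 and 766 in heterozygous spleens. The lowest homozygous array was well above the highest heterozygous one, and the log2 fold change was 0.98 ± 0.08 (SE), adjusted p = 0.000295, or 1.97-fold higher. Epha7 had 516, 591 and 482 in homozygous spleens, against 308, 279.7 and 321 in heterozygous spleens, at a log2 fold change of 0.80 ± 0.09 (SE), adjusted p = 0.00131. Epha3, a further receptor of ephrin-A ligands, had 529.6, 573 and 489 in homozygous spleens, against 354, 342 and 355 in heterozygous spleens, with 0.59 ± 0.07 (SE), adjusted p = 0.00196. For both, homozygous replicate 2 was the highest array and no array crossed between groups.

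The remaining listed class A receptors did not pass. Epha1 was at 0.01 ± 0.07, Epha2 at 0.02 ± 0.07 and Epha5, a mainly neural receptor, at −0.07 ± 0.09, all with overlapping groups. The ratio of Epha4 to Epha2 within arrays changed by 0.96 ± 0.14. All 4 measured class B receptors had positive estimates without passing. Ephb1 came nearest, with 159.6, 161 and 184 in homozygous spleens, against 146, 147 and 144 in heterozygous spleens and a log2 fold change of 0.20 ± 0.07 (SE), adjusted p = 0.0869. Its second probe set was at 0.05 ± 0.08. Ephb3 was at 0.14 ± 0.06, Ephb4, the ephrin-B2 receptor of veins, at 0.06 ± 0.06 and the kinase-inactive Ephb6 at 0.07 ± 0.07.

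Of the 8 ephrin ligands 1 passed (12.5%, beside 17.0% of all genes). Efna3, a ligand anchored to the membrane by a lipid, had 229, 207 and 228 in homozygous spleens, against 183, 192 and 172 in heterozygous spleens, with 0.28 ± 0.07 (SE), adjusted p = 0.0314. The groups did not overlap, but the call was lost in 5 of the 6 fits without 1 array (0.24 to 0.33), with the replicate number as a block (adjusted p = 0.0524) and with the Y-linked covariate (0.21, adjusted p = 0.201). Efna3 lies between Efna1 and Efna4 in the RefSeq gene order, with no other protein-coding gene among them. Efna1 was at −0.15 ± 0.09 and Efna4 at 0.04 ± 0.06, and neither passed. The ratio of Efna3 to Efna1 changed by 0.44 ± 0.05.

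A pair of further ephrins lay just short of the threshold with groups that did not overlap. Efna5 had 791, 881 and 933 in homozygous spleens, against 700.5, 748 and 757 in heterozygous spleens (0.24 ± 0.08 (SE), adjusted p = 0.0655), and it passed in 6 of 13 settings that kept all arrays. Efnb1, a transmembrane ligand of class B receptors, had 688, 628 and 668 in homozygous spleens, against 599, 576 and 538 in heterozygous spleens (0.21 ± 0.07 (SE), adjusted p = 0.0664) and passed in 7 of those 13. Efna2, at −0.01 ± 0.08, Efnb2, the arterial ligand of Ephb4, at 0.05 ± 0.06 and Efnb3, at 0.04 ± 0.10, had overlapping groups.

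**Figure D3:**
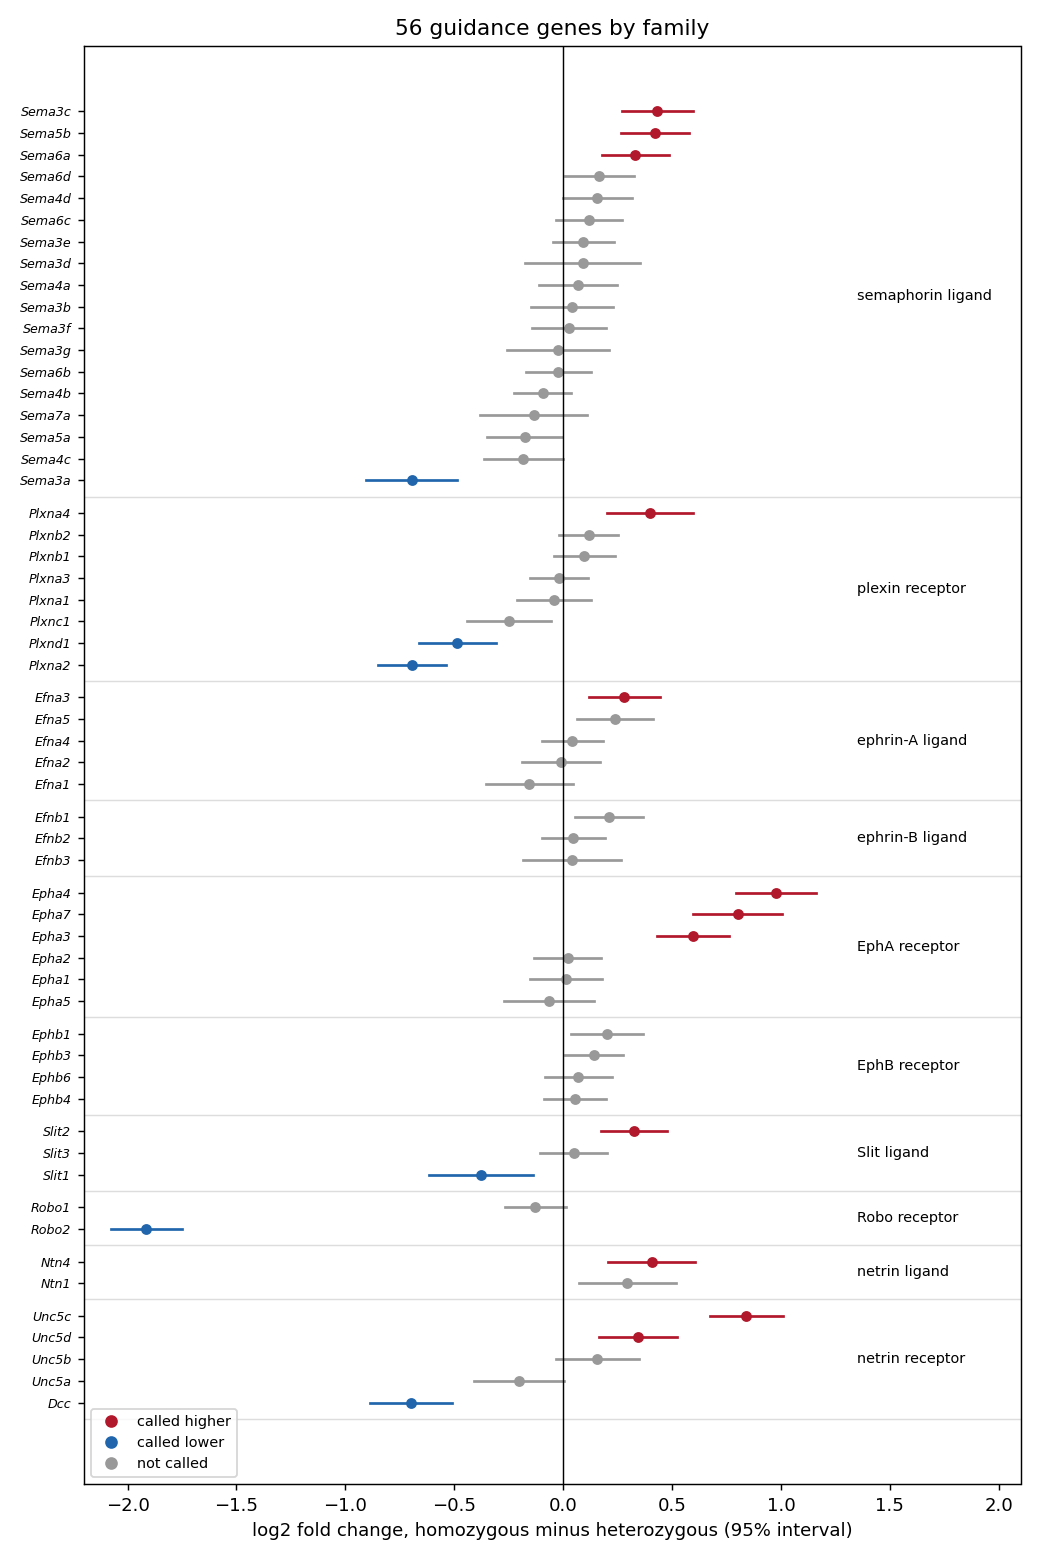
Log2 fold change (homozygous minus heterozygous) of each of the 56 guidance genes with its 95% interval from the limma fit, grouped by family and coloured by call. Robo2 is the lowest value and Epha4 the highest, and the listed ephrin-B ligands and class B Eph receptors hold no call.

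Semaphorin ligands moved in both directions, with Sema3a lower and Sema3c, Sema5b and Sema6a higher among 18 listed and measured, a share of 22.2% that lies near the 17.0% of all genes. Sema3a, a secreted repellent that signals through neuropilin-1 and class A plexins, had 933, 1065 and 831 in homozygous spleens, against 1493, 1496 and 1574 in heterozygous spleens. Every homozygous array was dimmer than every heterozygous array, with the widest spread among the homozygous ones. The log2 fold change was −0.70 ± 0.09 (SE), adjusted p = 0.00268, or 1.62-fold lower. Sema3c, a secreted ligand known from the cardiac outflow tract, moved the other way with 396, 428 and 419 in homozygous spleens, against 319.5, 319 and 283 in heterozygous spleens (0.43 ± 0.07 (SE), adjusted p = 0.00685). The ratio of Sema3c to Sema3a changed by 1.13 ± 0.13. Sema3c narrowly missed the threshold with the Y-linked covariate (adjusted p = 0.0541).

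The other class 3 genes, all encoding secreted proteins, did not pass. Sema3d was at 0.09 ± 0.12, with a wide spread in both groups, Sema3e, the ligand of plexin-D1, at 0.09 ± 0.06, Sema3b at 0.04 ± 0.08, Sema3f, a ligand acting through neuropilin-2, at 0.03 ± 0.07 and Sema3g at −0.02 ± 0.10. Sema3d and Sema3a are neighbours in the RefSeq gene order, and Sema3e lies 3 protein-coding genes away from Sema3a.

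Membrane-bound semaphorins that passed were higher in homozygous spleens. Sema5b, a transmembrane ligand with thrombospondin repeats, had 351, 390.3 and 375 in homozygous spleens, against 287, 263 and 282 in heterozygous spleens (0.42 ± 0.07 (SE), adjusted p = 0.0063). Sema6a, a transmembrane ligand of plexin-A2 and plexin-A4, had 708, 805 and 770.4 in homozygous spleens, against 602, 598 and 611 in heterozygous spleens (0.33 ± 0.07 (SE), adjusted p = 0.0145), with a much tighter spread in heterozygous than in homozygous spleens. Its call depended on heterozygous replicate 2 and was lost as well with the Y-linked covariate (adjusted p = 0.0706). Sema5a, of the same class as Sema5b, was at −0.18 ± 0.08 (adjusted p = 0.136).

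The listed class 4 genes did not pass (Sema4f, not on the list, did), with Sema4a at 0.07 ± 0.08, Sema4b at −0.09 ± 0.06, Sema4c at −0.18 ± 0.08 and Sema4d, the plexin-B1 ligand, at 0.16 ± 0.07. A second probe set of Sema4d gave 0.26 ± 0.08 (adjusted p = 0.0687), and the mean of both probe sets passed (adjusted p = 0.048). Sema6b, whose 2 probe sets hold identical values, was at −0.02 ± 0.07, Sema6c at 0.12 ± 0.07, Sema6d, a plexin-A1 ligand, at 0.17 ± 0.07 and the lipid-anchored Sema7a, the ligand of plexin-C1, at −0.13 ± 0.11. Over the 38 uncalled genes of all families the estimates ran from −0.25 to 0.30, and no bound of their 95% intervals exceeded 0.52 in size. Of these, 9 had an unadjusted p below 0.05.

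Plexin receptors also split, with Plxna2 and Plxnd1 lower and Plxna4 higher among 8 listed and measured (37.5%, beside 17.0% of all genes). Plxna2, a receptor for class 6 semaphorins and, with neuropilins, for class 3, had 269, 302 and 306 in homozygous spleens, against 481, 468 and 470.0 in heterozygous spleens. Homozygous values were about level with each other and far below the heterozygous ones, at a log2 fold change of −0.69 ± 0.07 (SE), adjusted p = 0.000741. Plxna4, its class A relative, had 358, 425 and 425 in homozygous spleens, against 326, 296 and 290.3 in heterozygous spleens (0.40 ± 0.09 (SE), adjusted p = 0.0182), and homozygous replicate 1 was the lowest of its group. That call was lost without homozygous replicate 3, without heterozygous replicate 2, and also under the Y-linked covariate (adjusted p = 0.085). The ratio of Plxna4 to Plxna2 changed by 1.09 ± 0.05.

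Plxnd1, the Sema3e receptor of endothelium, had 893, 896 and 1055 in homozygous spleens, against 1338, 1314 and 1324 in heterozygous spleens (−0.49 ± 0.08 (SE), adjusted p = 0.00598). Heterozygous arrays lay close together, and homozygous replicate 3 was the highest of its group without reaching them. Markers of endothelium were lower in the same samples, 11 of 14 called lower and none higher (78.6% called, beside 17.0% of all genes). Their summed intensities were 7101 to 7646 in homozygous spleens, against 9763 to 10098 in heterozygous spleens. The part of endothelium in the fall of Plxnd1 was not tested. Plxnc1, the Sema7a receptor, lay near the threshold at −0.25 ± 0.08 (SE), adjusted p = 0.0777. Plxna1 (−0.04 ± 0.08), Plxna3 (−0.02 ± 0.06), Plxnb1 (0.10 ± 0.06) and Plxnb2 (0.12 ± 0.06) did not pass.

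Neuropilins, the co-receptors of class 3 semaphorins, both rose. Nrp1 had 895, 1076 and 819 in homozygous spleens, against 539.6, 539.8 and 684 in heterozygous spleens (0.66 ± 0.12 (SE), adjusted p = 0.0109), so that it was higher in the samples in which its ligand gene Sema3a was lower. Nrp2 had 447, 493 and 493 in homozygous spleens, against 392, 386 and 384 in heterozygous spleens (0.30 ± 0.06 (SE), adjusted p = 0.0174), a call that did not hold with the Y-linked covariate (adjusted p = 0.0928) or when heterozygous replicate 2 was left out.

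Of 16 further measured genes of these families 5 rose and none fell (31.2% called, beside 17.0% of all genes). Draxin, a secreted netrin antagonist, was at 0.47 ± 0.12, the receptor genes Epha10 and Epha6 at 0.44 ± 0.07 and 0.39 ± 0.09, and Sema4f at 0.34 ± 0.10. Robo3, which encodes a further Robo family receptor, was at 0.29 ± 0.07, the smallest of the 5 rises. Draxin, Epha6, Sema4f and Robo3 were dim, with group means below the array medians of 106 to 110.5. Their homozygous means were 83.0, 34.5, 88.1 and 52.8, against heterozygous means of 59.9, 26.0, 69.7 and 43.2. Robo4 was lower at −0.22 ± 0.07 without passing (adjusted p = 0.0530), and its groups did not overlap. Epha10 kept its call in all 19 other settings. Draxin, Sema4f, Robo3 and Epha6 lost theirs in some, among them Draxin, Sema4f and Robo3 after cyclic loess and in 4 of the 6 fits without 1 array, and Epha6 with the Y-linked covariate and in 2 of those 6.

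Among 37 measured genes of intracellular steps downstream of these receptors 7 fell and 2 rose (24.3% called, beside 17.0% of all genes), with a median log2 fold change of −0.08. Vav3, a guanine nucleotide exchange factor that acts below Eph receptors, had 105, 104 and 100.4 in homozygous spleens, against 197, 204 and 215 in heterozygous spleens (−0.99 ± 0.06 (SE), adjusted p = 6.76e-05). Dpysl3, a relative of the collapsin response mediator that relays Sema3a, was at −0.71 ± 0.07 and the adaptor gene Nck2, which links receptors to actin, at −0.63 ± 0.07. Mical2, of a family of actin-oxidising enzymes that includes semaphorin effectors, was the larger of the rises (0.57 ± 0.06). These 4 kept their calls in all 19 other settings.

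**Figure D4:**
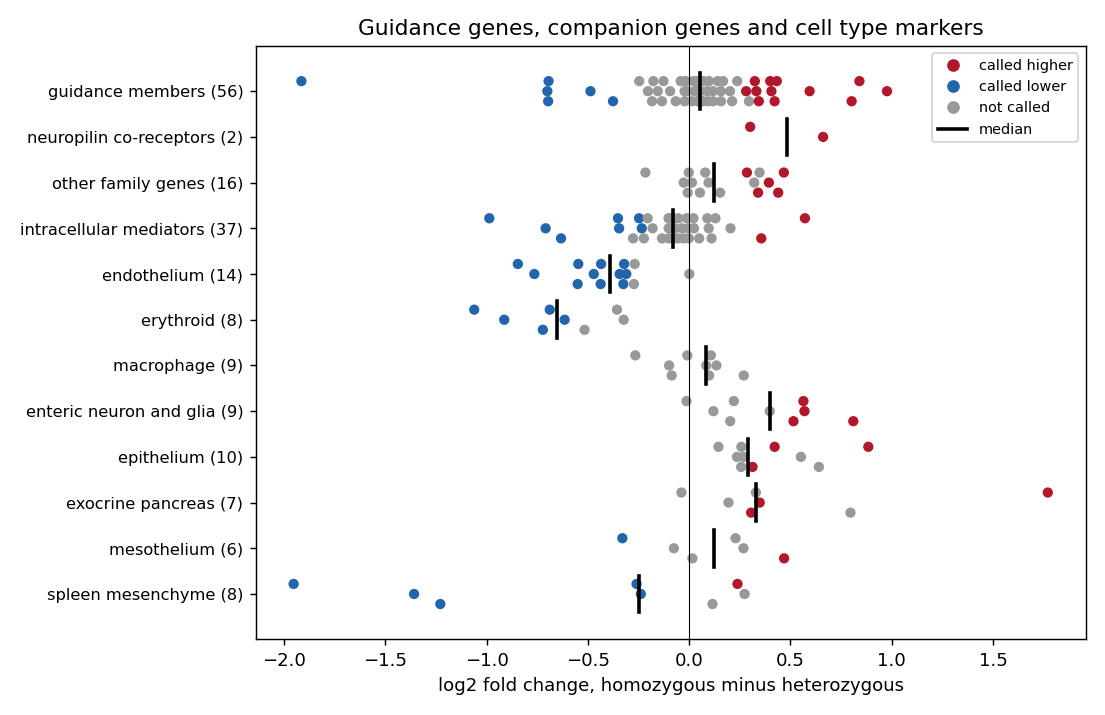
Log2 fold change (homozygous minus heterozygous) of each measured gene in the guidance list, 3 companion lists and 8 cell type marker lists, with the median of each list as a bar and the number measured in brackets. Guidance genes lie on both sides of 0, while the medians are −0.39 for endothelium, −0.65 for erythroid markers and 0.40 for enteric neuron and glia markers.

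Markers of several cell types differed between the same samples. For comparison, 10.4% of all genes tested were called higher and 6.56% lower. Of 9 measured markers of enteric neurons and glia, cells in which Dcc, Unc5 and Eph receptors are also known, 4 were higher and none lower. The other 5 were not called. Summed intensities of the 9 were 1793 to 1923 in homozygous spleens, against 1294 to 1391 in heterozygous spleens. Of the listed receptor genes named in that clause, Dcc was called lower, and Unc5c, Unc5d, Epha3, Epha4 and Epha7 higher. Epithelial markers were higher for 3 of 10 (3602 to 3962 in homozygous spleens, against 2748 to 3521 in heterozygous spleens), and exocrine pancreas markers for 3 of 7 (2124 to 2384 in homozygous spleens, against 706 to 1340.0 in heterozygous spleens). Most of the pancreas sum in homozygous spleens was Cpa1, with 1783, 1610 and 1600, against 861, 307 and 436 in heterozygous spleens. The other 4 of the 7 pancreas markers were not called. Erythroid markers were lower for 5 of 8 (1328 to 1588 in homozygous spleens, against 2016 to 2527 in heterozygous spleens). None of 9 macrophage markers passed, 1 of 6 mesothelial markers was higher and 1 lower, and of 8 measured spleen mesenchyme markers, Tlx1 among them, 5 were lower and 1 higher. No measured marker was listed at 0. The part of these cell types in the changes of the guidance genes was not tested.

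Arrays also differed in genes of the Y chromosome (Eif2s3y, Kdm5d and Uty), of which Eif2s3y was at 417, 391 and 392 in homozygous spleens, against 600.0, 398 and 735 in heterozygous spleens. With their level as a covariate 7 guidance genes were higher and 5 lower, namely Epha3, Epha4, Epha7, Unc5c, Unc5d, Sema5b and Ntn1, and Robo2, Dcc, Sema3a, Plxna2 and Plxnd1. Without heterozygous replicate 2 there were 6 higher and 5 lower. With the covariate 21.4% of the guidance genes were called, beside 8.8% of all genes. Without heterozygous replicate 2 the shares were 19.6% and 7.35%.

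**Figure D5:**
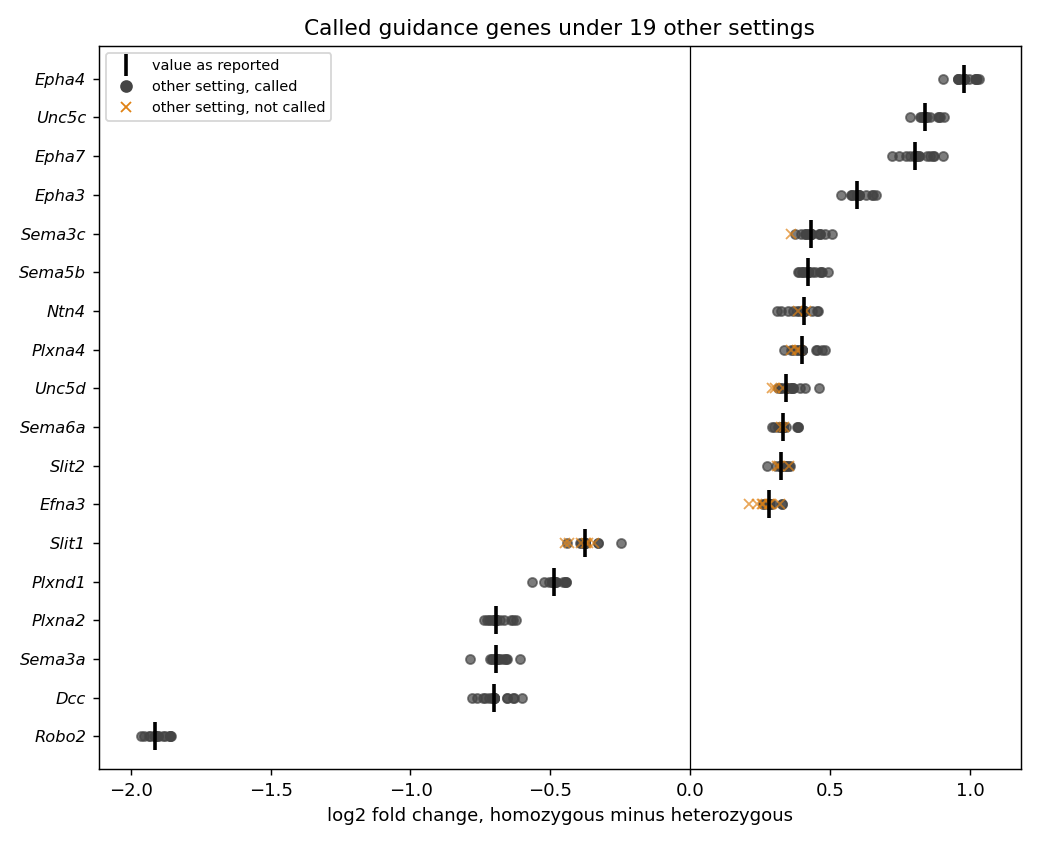
Log2 fold change (homozygous minus heterozygous) of the 18 called guidance genes as reported (bar) and in each of 19 other settings, as dots where the call held and crosses where it did not. No value crosses 0, and the crosses lie among genes whose reported change was 0.43 or less in size.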

How the data were processed

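The authors deposited linear intensities of each probe set on each array, for which the submitters' processing notes name GCRMA, a method that corrects background, normalizes arrays and summarises probes. Its version and the build were not given in the sources used here. Of 35512 probe sets, the platform's annotation gave 21789 a single symbol, 1621 several and 12102 none, and single symbols were used (21698 found by Entrez identifier in RefSeq, none changed). Probe sets with a log2 value of at least 4 (intensity 15) on at least 3 of 6 arrays were kept (20424), and the brightest per gene by mean was used (18710 genes). As the values were linear, log2(intensity + 1) was fitted, homozygous minus heterozygous, with limma 3.58.1 in R 4.3.3 (lmFit, eBayes, no covariate, two-sided, Benjamini-Hochberg over all genes). The added 1 slightly shrinks fold changes of dim genes. Detection calls were not used, and the number of arrays limits precision. The fit was tested on simulated data.

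The members and lists were chosen with earlier results of these data known. All members were named, with values per array for called members and for the member nearest the threshold in families without a call; further near-threshold members and the array-ratio pairs were chosen after their values were seen. From each companion list up to 4 called genes with the largest change were named, and Robo3 beside them, chosen after its value was seen. Alternatives were other filters, probe set choices, a pseudocount of 16, quantile, median and cyclic loess scaling, weighted arrays, trended and robust variance, a replicate block, the mean of Eif2s3y, Kdm5d and Uty as a Y-linked covariate, and fits without each array in turn.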

Additional observations from a re-analysis of the deposited data

How the results depend on the processing

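Guidance genes called higher numbered 12 to 14 in the 12 settings that kept all arrays other than the Y-linked covariate, which gave 7, and 6 to 12 without 1 array. Those called lower numbered 6 or 7, 5 with the covariate, and 5 to 6 without 1 array. Over all genes the covariate gave 1140 higher and 507 lower, and fits without 1 array 699 to 2319 higher and 499 to 1244 lower. Fewer samples enter those fits, yet the largest counts, without homozygous replicate 2, exceeded the 1951 and 1227 of all arrays. The replicate numbers share no stated origin. Deviations of same-numbered arrays correlated at −0.01, 0.04 and −0.11, not every array correlated best with its own number, and the replicate block gave 12 higher and 6 lower guidance genes and 2091 and 1072 over all genes. No called guidance gene changed sign in any of the 19 settings. Signs turned in uncalled genes near 0. After quantile normalization and cyclic loess, Plxna1 was at 0.010 and 0.011, Plxna3 at 0.056 and 0.033 and Efna2 at 0.050 and 0.045. After cyclic loess Sema3b was at −0.033, Sema4a at −0.019 and Epha1 at −0.014 (−0.0040 with median centring). Sema3f was at −0.0064 with array weights, and Sema3g, Sema6b and Sema7a at 0.084, 0.062 and 0.015 with the covariate. Without 1 array the ranges that crossed 0 were −0.041 to 0.096 for Sema3b, −0.023 to 0.078 for Sema3f, −0.11 to 0.042 for Sema3g, −0.011 to 0.11 for Sema4a, −0.073 to 0.012 for Sema6b, −0.083 to 0.053 for Efna2, −0.059 to 0.15 for Efnb3, −0.029 to 0.061 for Epha1, −0.028 to 0.053 for Epha2 and −0.12 to 0.0080 for Epha5. The cause was not tested. Signal over background was not measured, which limits the dimmest genes.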
